A study of Homo sapiens with 9 samples.

Results

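The interleukin 1 family and its receptors were followed through 10 genes of 58676 in the count table. They were taken by gene name: the ligand genes IL1A, IL1B, IL18, IL33 and IL36G, the antagonist gene IL1RN, the receptor genes IL1R1, IL1R2 and IL1RAP, and CASP1, which encodes a processing protease. The RNA came from HaCaT, an immortalised line of human keratinocytes, after 14 h of treatment. Each of 3 groups had 3 libraries: cells in DMEM with 1% DMSO as control, with CDDO-Me at 250 nM, or with PRL-295 at 10 µM. CDDO-Me (bardoxolone methyl) is an electrophilic activator of NRF2, the transcription factor of the antioxidant response. The series' title speaks of non-electrophilic NRF2 activators, and for PRL-295 a code name is all that is used here. The labels name DMSO for the control cells only, and leave it unsaid whether a group's libraries are separate cultures, so p-values measure the spread between these samples, which may be technical.

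Interleukin 1α and interleukin 1β, encoded by IL1A and IL1B, bind the receptor IL1R1, which then recruits the accessory protein IL1RAP and signals through MYD88 and the IRAK kinases to NF-kB. IL1RN encodes a receptor antagonist that occupies IL1R1 without signalling, and IL1R2 is a decoy receptor without a signalling domain. Caspase-1, the product of CASP1, cleaves the precursors of interleukin 1β and interleukin 18, whereas keratinocytes store interleukin 1α and release it on injury. IL-36γ, encoded by IL36G, uses IL1RAP together with another receptor chain.

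IL1A and IL1B are neighbours on chromosome 2 and both are read from the minus strand. Their promoters are shown because the 2 genes stood in different orders across the groups. Each window was taken from RefSeq (GRCh38.p14) and runs 5′ to 3′ along the gene's strand over 300 bases, of which 250 precede the annotated start. Capitals mark matches to the AP-1 motif TGANTCA, to TGACNNNGC, the core of the antioxidant response element that NRF2 binds, or to TATAAA, the TATA box. The IL1A window lies at chr2:112784444-112784743 and the IL1B window at chr2:112836730-112837029.
IL1A: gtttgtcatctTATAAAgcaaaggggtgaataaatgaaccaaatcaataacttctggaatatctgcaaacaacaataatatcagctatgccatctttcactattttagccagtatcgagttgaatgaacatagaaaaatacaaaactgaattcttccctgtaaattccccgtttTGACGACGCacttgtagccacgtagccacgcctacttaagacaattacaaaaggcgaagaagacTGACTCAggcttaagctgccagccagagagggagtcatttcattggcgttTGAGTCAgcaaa
IL1B: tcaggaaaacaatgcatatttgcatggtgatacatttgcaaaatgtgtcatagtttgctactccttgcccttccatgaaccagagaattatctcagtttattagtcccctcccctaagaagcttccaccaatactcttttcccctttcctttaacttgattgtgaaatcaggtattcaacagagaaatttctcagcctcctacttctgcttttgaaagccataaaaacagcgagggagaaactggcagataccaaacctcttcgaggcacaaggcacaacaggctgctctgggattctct
With the start counted as position 0, the IL1A window held TGACGACGC at -76 to -68, TGACTCA at -12 to -6, TGAGTCA at 38 to 44 and TATAAA at -239 to -234. A second RefSeq start of IL1A lies downstream, and its window held the same antioxidant and AP-1 matches. None of the 3 motifs matched the IL1B window. Both strands were searched, and no matches of different motifs overlapped in these windows. Over 34796 promoter windows of this length, 7.73% held the AP-1 motif, 13.3% the antioxidant core and 11.6% TATAAA. The NF-kB consensus matched 11.3% of windows, and neither the IL1A windows nor the IL1B window. Windows were found for 8 of the 10 members, 16 in all, and not for IL18 and CASP1. The AP-1 motif also matched 1 window of IL1RN, the antioxidant core 1 window each of IL1R1 and IL1R2, and the NF-kB consensus 1 window of IL1R2. TATAAA matched 1 window each of IL1R1, IL1R2 and IL1RN. A match describes letters in the window only.

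Library totals ran from 23383800 to 32942156 counted reads, and 3 counts, taken as the floor, equal 0.0911 to 0.128 CPM (counts per 1e6 reads, scaled with TMM factors of edgeR). Such a floor covers counting error only, since without molecular identifiers 1 molecule can give several reads. All 8 keratinocyte markers, such as KRT5 and TP63, were above 3 counts in every library, with summed levels of 14400 to 15600 CPM in DMSO, 19000 to 21300 in CDDO-Me and 12000 to 12800 in PRL-295. Of the markers of other cell types, 3 of 7 for fibroblasts (COL3A1, DCN and LUM), 1 of 6 for melanocytes (TYR) and 1 of 5 for endothelium (PECAM1) were at 0 in all libraries. Above 3 counts in some library were 3, 5 and 4 of them, among them COL1A1 (178 to 417 counts), PMEL (36 to 96) and MITF (53 to 184) in all 9 libraries. SOX10 and VWF were above 3 counts in 8 libraries. Summed fibroblast markers were 8.57 to 11.6 CPM in DMSO, 9.99 to 13.1 in CDDO-Me and 7.2 to 7.63 in PRL-295. Summed melanocyte markers were 4.94 to 9.96, 6.99 to 7.58 and 4.07 to 5.5 CPM, and endothelial markers 1.48 to 2.31, 0.125 to 0.985 and 0.518 to 1.68 CPM. Their part in the results was not tested. The GC content of genes was followed to a different degree by each library. The correlation of a library's deviation with GC content was 0.325 to 0.37 in DMSO. For CDDO-Me 1, 2 and 3 it was 0.00732, -0.651 and -0.226. For PRL-295 1, 2 and 3 it was -0.477, 0.316 and -0.153. Every compound library was thus below every DMSO library, PRL-295 2 by little, so the GC trend and the treatment cannot be told apart. A correction for the trend may also remove a part of a treatment effect. The tested members have a GC content of 39.1% to 50.6% in their longest transcript, against a median of 49.2% over the tested genes. A fit with a GC and length correction is therefore given beside members below, and the plot of corrected values against DMSO shows all 9 tested.

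In vehicle-treated cells, levels between genes were compared per length, as the authors' FPKM (fragments per kilobase of gene and 1e6 counted reads). IL18 (19.3 ± 1.31 FPKM, SD, n = 3) and IL1RN (19.1 ± 3.31) were highest and overlapped, and IL1RN also overlapped IL1B (15.7 ± 1.13). IL1A followed at 6.73 ± 0.729 FPKM, below every IL1B value. IL1R2 (2.28 ± 0.189), CASP1 (2.12 ± 0.469), IL36G (1.56 ± 0.714) and IL1RAP (1.37 ± 0.232) came next, and each overlapped its neighbour in this order. The signalling receptor IL1R1 stood at 0.195 ± 0.113 FPKM, below the decoy IL1R2 in every library. The ratio of IL1R2 to IL1R1 in FPKM ran from 5.73 to 32.0 over the 9 libraries, with 18 to 64 counts of IL1R1 behind it. IL33, which encodes a nuclear alarmin, had 1 count in 1 CDDO-Me library and 0 counts in the other 8, under the floor throughout, so it was not tested.

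Of the 10 members, 9 passed the filter on low counts, and edgeR's quasi-likelihood test was applied with p-values adjusted by Benjamini-Hochberg over 16239 genes. With CDDO-Me, IL1B fell to less than the lowest DMSO value in every library, and no other member passed the test. With PRL-295 no member passed against DMSO. Between the compounds, IL1B was 3.68-fold higher with PRL-295. Of the tested members IL1A had the largest fold change with PRL-295, and it passed a test among the 3 groups, but no pairwise test.

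For CDDO-Me against DMSO, the comparison that asks what the electrophilic activator changes, 0 members were higher and 1 was lower, while 9.22% of all tested genes were called (4.65% higher and 4.57% lower). An unadjusted p under 0.05 was found for 5 of 9 members (26.0% of all genes). DESeq2 called 3 members, beside 1371 higher and 1245 lower of all 16239 genes. The 3 libraries of each group did not overlap for 2 members, IL1RAP (higher) and IL1B (lower), against 31.8% of all genes (15.5% higher and 16.3% lower). The members' median log2 fold change was 0.09, beside 0.01 over all genes. For PRL-295 against DMSO, edgeR called 0 of 9 members, beside 0.684% of all genes. There the unadjusted p was under 0.05 for 3 members (12.9% of all genes). DESeq2 called 2 members, beside 414 higher and 189 lower of all 16239 genes. The groups did not overlap for 4 members, 3 higher (IL1A, IL1B and IL36G) and 1 lower (IL18), against 27.2% of all genes (13.5% higher and 13.7% lower). The members' median was -0.03, beside -0.01. For PRL-295 against CDDO-Me, at doses that differ, 1 of 9 members was called, beside 1.59% of all genes (0.905% higher). There 4 members did not overlap, 2 higher (IL1B and IL1RN) and 2 lower (IL18 and IL1RAP), against 24.6% of all genes (14.4% higher and 10.2% lower). The unadjusted p was under 0.05 for 3 members (17.2% of all genes). DESeq2 called 3 members, beside 579 higher and 475 lower of all 16239 genes. The members' median was -0.01, and that of all genes -0.01. The comparisons with DMSO share the same control libraries.

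**Figure D1:**
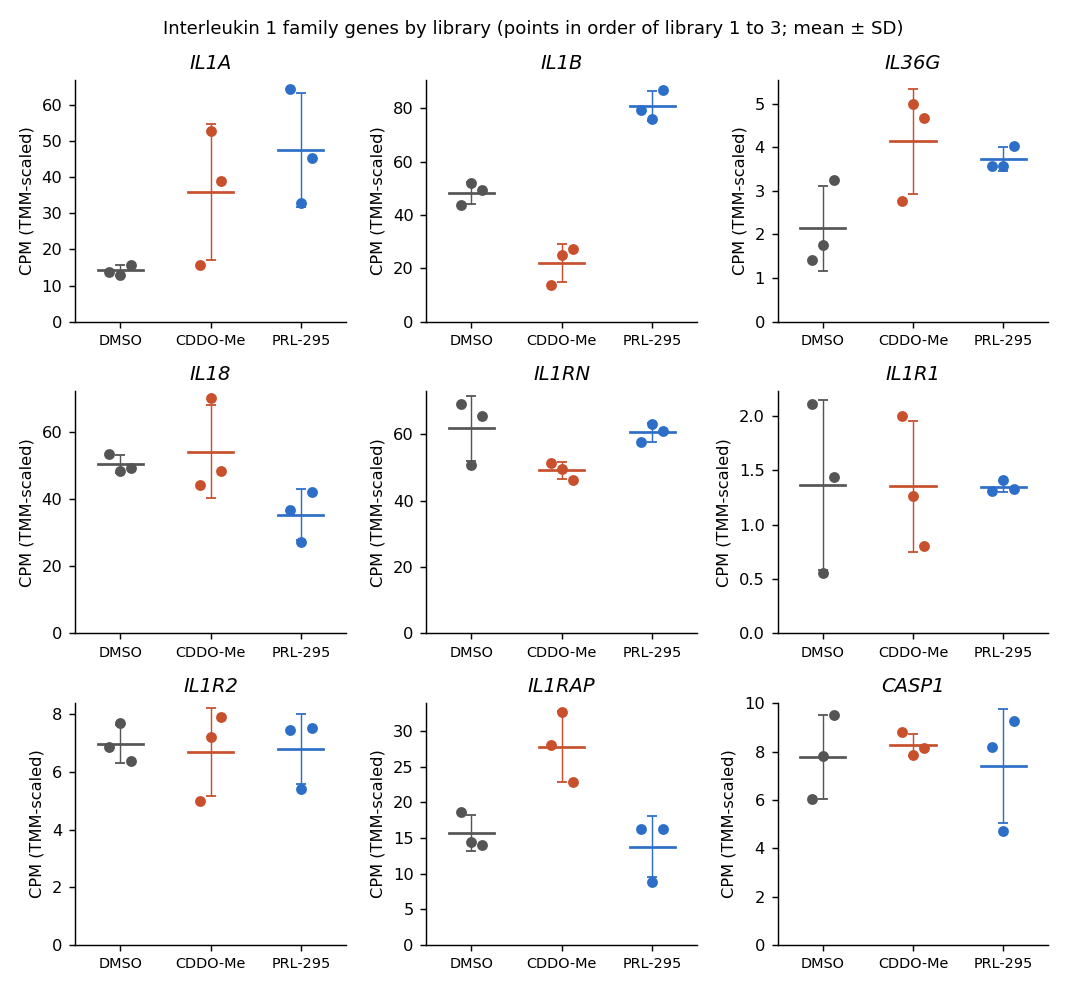
TMM-scaled CPM of the 9 tested members in each library, with the group mean as a line and the SD as a bar. IL1B forms 3 separate bands with means of 48.3, 22.0 and 80.8 CPM, while IL1A in CDDO-Me library 1 (15.6 CPM) sits beside the DMSO libraries.

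IL1B (ENSG00000125538, hg38 chromosome 2, 112829751 to 112836903) stood at 43.8, 51.8 and 49.4 CPM in DMSO 1, 2 and 3. Under CDDO-Me it was 13.7, 24.9 and 27.4 CPM, and under PRL-295 it was 79.2, 76.1 and 87.0 CPM. No 2 groups overlapped: every CDDO-Me library lay below DMSO and every PRL-295 library above it. With CDDO-Me it fell by 1.14 on the log2 scale, which is 2.2-fold (SE 0.22, 95% interval -1.62 to -0.65, edgeR adjusted p = 0.0115). That call ended without DMSO 2 (log2 fold change -1.09, adjusted p = 0.0574) and in no other fit that left out a library. Corrected for GC and length, the difference was -1.22 (adjusted p = 0.000471). With PRL-295 the log2 fold change from DMSO was 0.74 (interval 0.26 to 1.22, adjusted p = 0.173), which did not pass. Without CDDO-Me 1, which is not part of that comparison but shares its estimate of spread, the adjusted p was 0.0102, and in a fit of the 6 libraries compared it was 0.00767. It passed with DESeq2 (0.0317) and with no filter (0.0019). The GC and length correction gave 0.51 (adjusted p = 0.166). The direct difference was 1.88 on the log2 scale, higher with PRL-295 (SE 0.22, interval 1.39 to 2.37, adjusted p = 0.00261), and it stayed past the threshold in all 17 alternative fits (1.63 to 2.07). Among the 3 groups the edgeR F test gave an adjusted p of 0.00238, and 5.68% of all genes passed that test.

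Myeloid cells are a known source of interleukin 1β, so the markers of immune cells are given beside it. The summed level of the 10 listed markers was 2.7 to 4.3 CPM in DMSO, 1.19 to 2.55 CPM in CDDO-Me and 2.52 to 3.85 CPM in PRL-295. Of these markers 7 exceeded 3 counts in some library, and AIF1 and CD207 were at 0 in all. PTPRC, the pan-leukocyte marker, had at most 4 counts in any library. CD14 averaged 1.15, 0.164 and 1.31 CPM in DMSO, CDDO-Me and PRL-295. In the same order HLA-DRA averaged 1.02, 0.84 and 1.01 CPM, CSF1R 0.764, 0.172 and 0.358 CPM, and ITGAM 0.523, 0.677 and 0.362 CPM. The RNA came from the HaCaT line, and whether RNA of other cells had a part in the IL1B values was not tested. In bulk RNA, fewer cells of a type and less RNA per cell cannot be told apart.

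IL1A (ENSG00000115008, chromosome 2, 112773915 to 112784590) was 13.8, 13.0 and 15.8 CPM in DMSO 1, 2 and 3. Under CDDO-Me it was 15.6, 52.7 and 39.0 CPM, and under PRL-295 it was 64.3, 32.8 and 45.2 CPM. All PRL-295 libraries exceeded DMSO, and CDDO-Me library 1 fell within the DMSO range. The log2 fold change was 1.33 with CDDO-Me (interval 0.5 to 2.16, adjusted p = 0.0511) and 1.74 with PRL-295 (interval 0.9 to 2.58, adjusted p = 0.0773). Neither passed, although the F test among the groups did (adjusted p = 0.0487). PRL-295 and CDDO-Me differed by 0.41 (interval -0.4 to 1.22, adjusted p = 0.625). The order of IL1A within each compound group was the order of the libraries' GC trend, with CDDO-Me 2 and PRL-295 1 highest and most negative, and CDDO-Me 1 and PRL-295 2 lowest. IL1A has the lowest GC content of the tested members (39.1%), and IL18 is close at 39.2%. The order of IL18 followed the trend in CDDO-Me but not in PRL-295. Whether GC content had a part in the spread of IL1A was not tested. Corrected for GC and length, the IL1A differences from DMSO were smaller but passed the test, at 0.83 for CDDO-Me (adjusted p = 0.014) and 1.33 for PRL-295 (adjusted p = 0.00243). The CDDO-Me difference also passed without CDDO-Me 1 (1.69, adjusted p = 0.00197) or without PRL-295 2 (adjusted p = 0.0361). The PRL-295 difference passed without CDDO-Me 1 (adjusted p = 0.00395) or CDDO-Me 2 (0.021), and in a fit of the 6 libraries compared (0.00274). DESeq2 called both differences (adjusted p = 0.00318 and 0.000189), as did the edgeR fit with no filter (7.74e-09 and 2.09e-14). Without the filter the log2 fold changes were 1.34 and 1.75, almost as reported. Those far smaller p-values thus do not mean a larger change, and their cause was not tested. The CDDO-Me difference passed with RLE scaling (0.0487) and with a minimum of 1 CPM (0.0451).

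**Figure D2:**
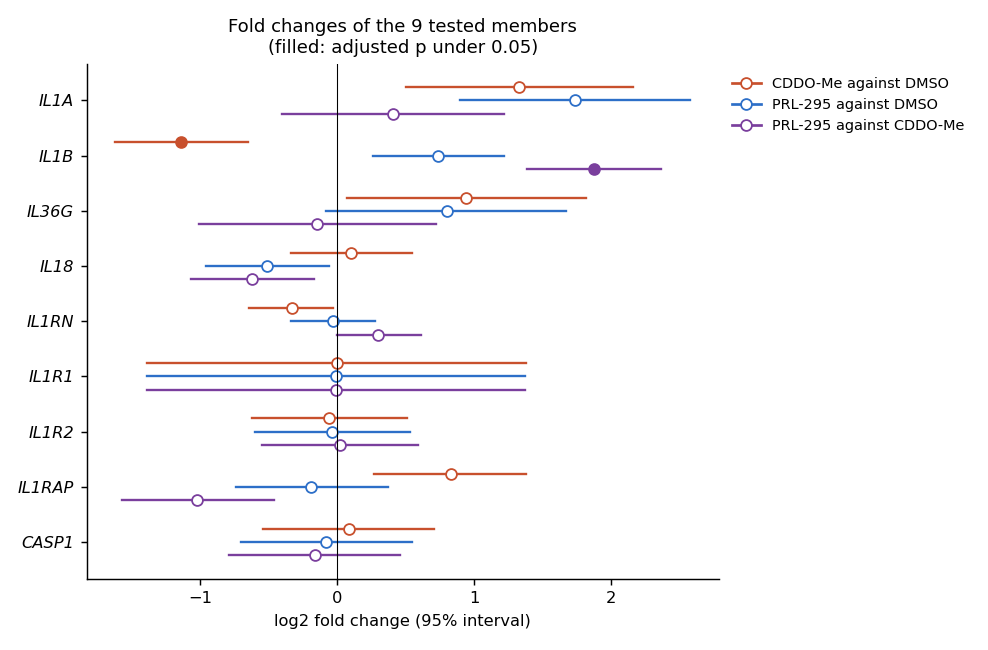
Log2 fold changes of the 9 tested members in the 3 comparisons, with 95% intervals from the edgeR fit and filled points for an adjusted p under 0.05. Filled points appear for IL1B only, at -1.14 with CDDO-Me and at 1.88 between the compounds.

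The balance of the 2 interleukin 1 genes differed between the groups as a description. The ratio of IL1A to IL1B in FPKM was 0.46, 0.366 and 0.467 in DMSO 1, 2 and 3. Under CDDO-Me it was 1.65, 3.09 and 2.08. In the PRL-295 libraries it was 1.18, 0.629 and 0.757, between the other groups without overlap. The antagonist gene IL1RN relative to the sum of IL1A and IL1B in FPKM was 1.03, 0.681 and 0.863 in DMSO. It was lower in all PRL-295 libraries (0.317, 0.485 and 0.379), and 1.35, 0.465 and 0.524 in the CDDO-Me libraries, where library 1 was above DMSO and the others below.

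IL36G (ENSG00000136688) was low, at 1.42, 1.75 and 3.25 CPM in DMSO, 2.76, 4.99 and 4.66 CPM in CDDO-Me and 3.57, 3.58 and 4.04 CPM in PRL-295. All PRL-295 libraries were above DMSO, whereas CDDO-Me library 1 overlapped DMSO. The log2 fold changes were 0.94 (adjusted p = 0.163) and 0.80 (adjusted p = 0.441), with intervals of 0.07 to 1.82 and -0.08 to 1.67. Without CDDO-Me 1 the first passed (1.17, adjusted p = 0.0443). The corrected values were 0.86 and 0.51 (adjusted p = 0.181 and 0.74).

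IL18 (ENSG00000150782, chromosome 11, 112143251 to 112164117), the other substrate of caspase-1, was 53.4, 48.3 and 49.3 CPM in DMSO and 44.2, 69.9 and 48.2 CPM in CDDO-Me. In the PRL-295 libraries it was 36.6, 27.1 and 42.2 CPM, below every DMSO and every CDDO-Me library. The difference of PRL-295 from DMSO was -0.51 (interval -0.96 to -0.06, adjusted p = 0.32), and that from CDDO-Me was -0.62 (interval -1.07 to -0.17, adjusted p = 0.157). Neither passed. Corrected for GC and length, the first was -0.87 and passed (adjusted p = 0.0336), but with a replicate block added it was -0.86 and did not pass (0.065). The second passed with DESeq2 (0.0477) and with no filter (0.0253). For CDDO-Me against DMSO the log2 fold change was 0.10 (interval -0.34 to 0.55, adjusted p = 0.796), and its sign turned with that correction (-0.28).

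CASP1 (ENSG00000137752, chromosome 11, 105025443 to 105035250) overlapped in all 3 groups, with 6.04 to 9.53 CPM in DMSO, 7.88 to 8.8 CPM in CDDO-Me and 4.73 to 9.26 CPM in PRL-295. Its log2 fold changes were 0.09 and -0.08 against DMSO, with intervals of -0.54 to 0.71 and -0.7 to 0.55. Corrected for GC and length they were -0.15 and -0.39 (adjusted p = 0.838 and 0.805). Reads may be shared with the nearby and very similar CARD16 and CARD17, so its share is uncertain. CARD16 had 359 counts and CARD17 7 over all libraries, against 1988 of CASP1.

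IL1RN (ENSG00000136689, chromosome 2, 113107214 to 113134016) was 69.3, 50.7 and 65.7 CPM in DMSO, 51.5, 49.7 and 46.3 CPM in CDDO-Me and 57.7, 63.2 and 61.0 CPM in PRL-295. Both compounds overlapped DMSO, while all PRL-295 libraries exceeded all CDDO-Me libraries. The log2 fold change was -0.33 with CDDO-Me (interval -0.64 to -0.03, adjusted p = 0.161) and -0.03 with PRL-295 (interval -0.34 to 0.28, adjusted p = 0.969). The direct difference was 0.30 (adjusted p = 0.299). After the GC and length correction the CDDO-Me and direct values were -0.17 and 0.05.

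The decoy receptor gene IL1R2 ranged from 6.37 to 7.68 CPM in DMSO, 4.98 to 7.92 CPM in CDDO-Me and 5.41 to 7.52 CPM in PRL-295, with wholly overlapping groups. Its log2 fold changes were -0.06 and -0.04 against DMSO, with intervals of -0.62 to 0.51 and -0.6 to 0.53. IL1R1, the signalling receptor, was 2.11, 0.553 and 1.44 CPM in DMSO, 2.0, 1.26 and 0.804 CPM in CDDO-Me and 1.31, 1.41 and 1.33 CPM in PRL-295. The interval of its log2 fold change spanned -1.39 to 1.38 with CDDO-Me and -1.39 to 1.37 with PRL-295. Changes within those bounds thus remain possible.

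IL1RAP (ENSG00000196083, chromosome 3, 190514051 to 190659750), the accessory chain shared by the receptors for interleukin 1, interleukin 33 and interleukin 36, was 18.6, 14.5 and 14.0 CPM in DMSO. It was 28.0, 32.7 and 22.8 CPM in CDDO-Me and 16.2, 8.84 and 16.3 CPM in PRL-295. Every CDDO-Me library exceeded every library of the other groups. The log2 fold change with CDDO-Me was 0.83 (interval 0.27 to 1.38, adjusted p = 0.0647) and did not pass. It passed without PRL-295 2 (adjusted p = 0.0198), in a fit of the 6 libraries compared (0.0448), with DESeq2 (0.017) and with no filter (0.00774). With the GC and length correction it was 0.44 (adjusted p = 0.223). With PRL-295 it was -0.19 (interval -0.74 to 0.37), and the direct difference was -1.02 (interval -1.57 to -0.46, adjusted p = 0.0786). The direct difference passed with DESeq2 (0.00478) and with no filter (0.00179).

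**Figure D3:**
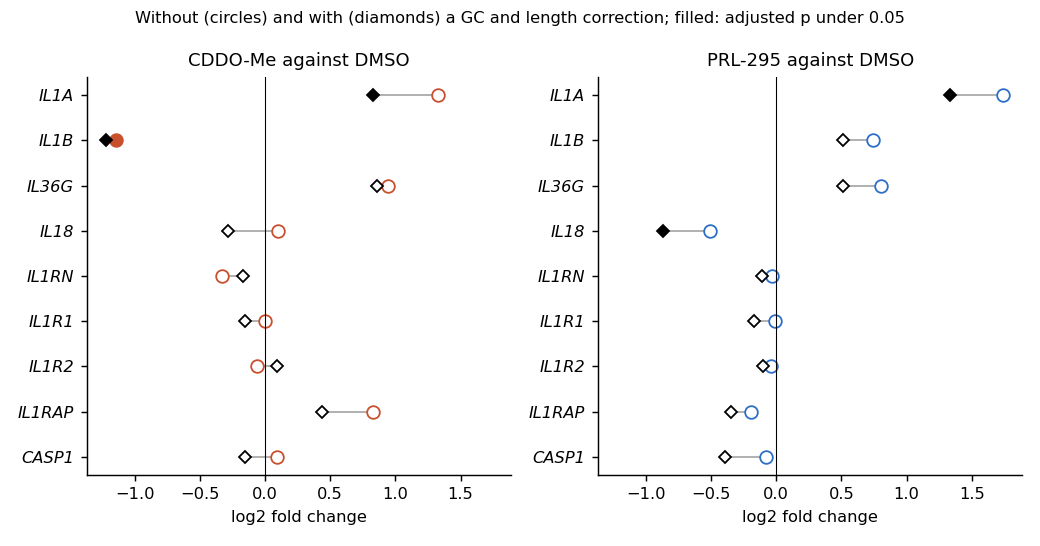
Log2 fold changes of the 9 tested members against DMSO, without (circles) and with (diamonds) the correction for GC and length, filled for an adjusted p under 0.05. IL1B with CDDO-Me passed both ways (-1.14 and -1.22), whereas IL1A (0.83 and 1.33) and IL18 with PRL-295 (-0.87) passed with the correction only. IL18 did not pass with a replicate block added to the correction (-0.86).

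On chromosome 2 the ligand and antagonist genes lie in 1 cluster of 9 family genes, with the starts of IL1A and IL1RN 322.6 kb apart and IL1B 52.3 kb from IL1A. Of the 9, 7 were tested and IL36A (2 counts in all) and IL1F10 (43) were not. With CDDO-Me, IL1B was the called gene in the cluster, and the estimates of the nearby IL1A and IL36G were of the opposite sign. For IL36RN, which encodes the antagonist of interleukin 36, the estimate was 0.90 with CDDO-Me (interval 0.23 to 1.56, adjusted p = 0.0894) and 0.32 with PRL-295. IL37 and IL36B had 70 and 128 counts over all libraries, and their log2 fold changes with CDDO-Me had intervals of -3.07 to 3.78 and -2.64 to 3.85.

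**Figure D4:**
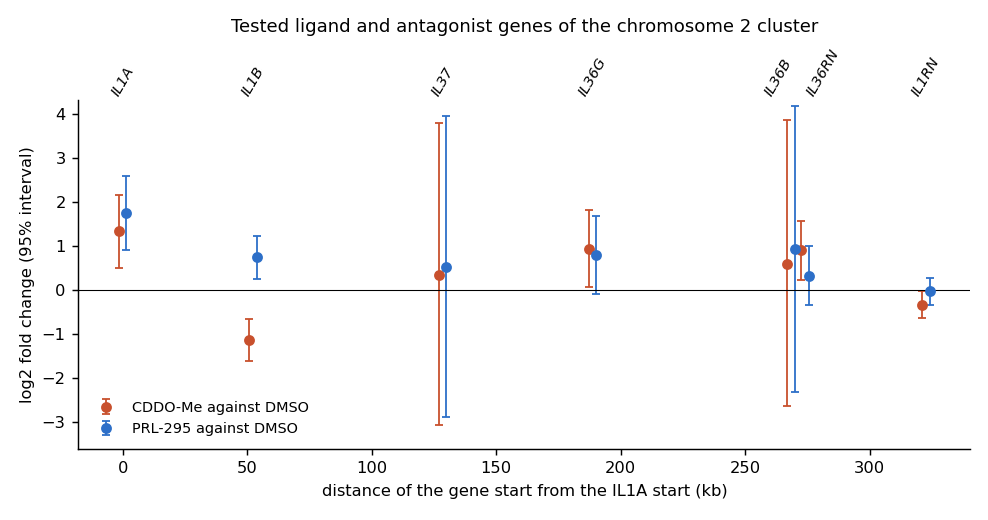
Log2 fold changes against DMSO, with 95% intervals, of the 7 tested ligand and antagonist genes of the chromosome 2 cluster, by distance of each gene's start from that of IL1A in kb. IL1B at 52.3 kb is below 0 with CDDO-Me (-1.14) and above 0 with PRL-295 (0.74).

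The rest of the pathway was taken from 5 lists. Of 6 other family ligands and antagonists 4 were tested and none was called in any comparison. The most abundant was IL18BP, the binding protein of interleukin 18, with log2 fold changes of 0.72 (CDDO-Me, adjusted p = 0.177) and -0.12 (PRL-295, adjusted p = 0.937). The list's median was 0.66 with CDDO-Me and 0.42 with PRL-295, beside 0.01 and -0.01 over all genes. It rests on 4 genes, of which 4 were above 0 with CDDO-Me and 3 with PRL-295. Among them are IL37 and IL36B with 70 and 128 counts over all libraries, so a shift of the list cannot be decided. Of 7 other receptors 4 were tested and none was called, with a median of -0.34 with CDDO-Me and 0.09 with PRL-295. SIGIRR, an inhibitory receptor of the family, had 33.8 ± 1.48 CPM in DMSO and log2 fold changes of -0.48 (adjusted p = 0.0794) and -0.14 (adjusted p = 0.806). IL1RL1 and IL18R1 overlap on the same strand, so their counts are uncertain.

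Of 13 genes of receptor-proximal signalling 11 were tested, and 2 rose with CDDO-Me, beside 4.65% of all genes called higher. They were MAP3K7, the kinase TAK1 (log2 fold change 0.86, adjusted p = 0.0155), and TAB2, its adaptor (0.75, adjusted p = 0.0446). MAP3K7 was 22.9 to 27.8 CPM in DMSO and 38.4 to 52.1 CPM in CDDO-Me. With the GC and length correction neither passed, at 0.38 (adjusted p = 0.318) and 0.30 (adjusted p = 0.137). The MAP3K7 call ended without DMSO 1 (0.0723), DMSO 2 (0.0854) or CDDO-Me 2 (0.0575). The TAB2 call was kept only without CDDO-Me 1 or PRL-295 2 among the fits that left out a library, with adjusted p up to 0.15 in the others. None was called with PRL-295, where the value of IRAK1, the most abundant gene of the list, was -0.29 (adjusted p = 0.509). Over the 11 tested genes the median log2 fold change was 0.3 with CDDO-Me and 0.13 with PRL-295.

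Of 19 inflammasome and processing genes 13 were tested, and with CDDO-Me 2 rose and 2 fell, beside 4.65% and 4.57% of all genes. NLRP1, the inflammasome sensor of keratinocytes, rose from 9.44, 15.3 and 10.1 CPM in DMSO to 25.7, 23.8 and 24.4 CPM (2.12-fold, log2 fold change 1.08, adjusted p = 0.0205). With PRL-295 it was 11.4, 7.58 and 12.2 CPM, within the range of DMSO but for 1 lower library, and it was lower than with CDDO-Me (-1.25, adjusted p = 0.0306). With the GC and length correction NLRP1 passed in both comparisons, at 1.21 (adjusted p = 0.00699) and -1.12 (adjusted p = 0.0259). Its CDDO-Me call ended without DMSO 1 (0.0952), DMSO 3 (0.0849) or CDDO-Me 3 (0.0516), and with a replicate block (0.0566). Its direct call was kept only without DMSO 1, DMSO 2 or CDDO-Me 1, with adjusted p of 0.0501 to 0.0994 in the others. CASP4, an inflammatory caspase, rose (log2 fold change 0.83, adjusted p = 0.0133), and GSDMD, whose cleaved product forms the pores of pyroptosis, fell by 0.61 (log2, adjusted p = 0.0317). CAPN1, a subunit of the calpain that can cleave the interleukin 1α precursor, fell by 0.48 (adjusted p = 0.0236). None of these 3 passed with the GC and length correction, where the log2 fold changes were 0.30, -0.29 and -0.22. The CASP4 call ended without DMSO 1, DMSO 2 or CDDO-Me 2 (0.0633 to 0.0723). The GSDMD call was kept only without CDDO-Me 1, PRL-295 1 or PRL-295 2 (up to 0.112 otherwise), and that of CAPN1 only without DMSO 3, CDDO-Me 1, PRL-295 1 or PRL-295 2 (up to 0.101 otherwise). With PRL-295 against DMSO 0 of 13 were called, and the value of CAPN1 was -0.27 (adjusted p = 0.34). Over the 13 tested genes the median log2 fold change was 0.27 with CDDO-Me and 0.05 with PRL-295.

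**Figure D5:**
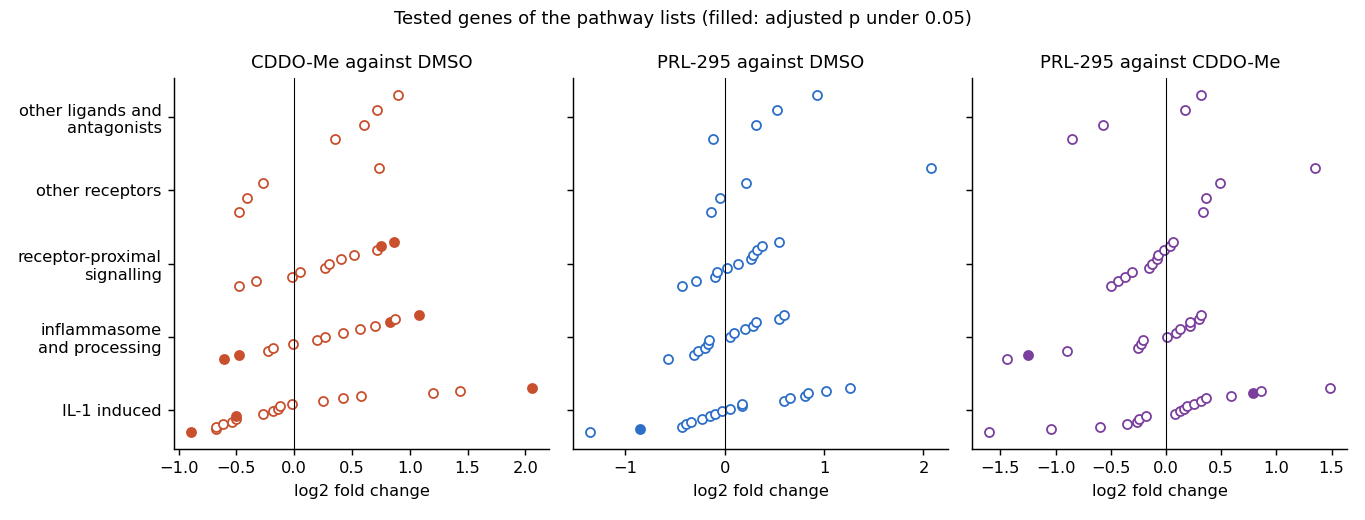
Log2 fold changes of every tested gene of the 5 pathway lists in the 3 comparisons, 1 point a gene, filled for an adjusted p under 0.05. Filled points are 9 with CDDO-Me against DMSO, 1 with PRL-295 against DMSO (S100A9) and 2 between the compounds (NLRP1 and LCN2).

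Of 20 genes that interleukin 1 is known to induce in keratinocytes 18 were tested, and with CDDO-Me 1 rose and 2 fell, beside the same 4.65% and 4.57%. The list's median was -0.16, beside 0.01 over all genes. LCN2, the iron-binding lipocalin, was 84.4, 102 and 122 CPM in DMSO, 51.6, 51.2 and 63.7 CPM in CDDO-Me and 89.0, 106 and 94.1 CPM in PRL-295. With CDDO-Me it fell by 0.89 in log2 CPM (adjusted p = 0.00699), a call that held in each fit that left out a library. Corrected for GC and length, that difference was -0.52 and passed (adjusted p = 0.039). With a replicate block added to the correction it did not pass (-0.52, adjusted p = 0.0717). LCN2 was higher with PRL-295 than with CDDO-Me (0.79, adjusted p = 0.0306). That direct call was kept only without DMSO 1 or DMSO 3 (0.0561 to 0.117 otherwise) and did not pass with the GC and length correction (0.47, adjusted p = 0.0934). CXCL1, a neutrophil chemokine, fell by 0.50 with CDDO-Me (adjusted p = 0.0437), a call kept only without PRL-295 2 (0.0524 to 0.163 otherwise). PTGS2, the inducible cyclooxygenase, rose from 1.15 ± 0.81 to 4.76 ± 1.27 CPM (log2 fold change 2.06, adjusted p = 0.0421), and its call was kept only without DMSO 1, CDDO-Me 1 or PRL-295 2 (up to 0.128 otherwise). With the GC and length correction CXCL1 (-0.43, adjusted p = 0.159) and PTGS2 (1.56, adjusted p = 0.134) did not pass. With PRL-295 against DMSO S100A9, a subunit of calprotectin, was the gene called, and it fell by 0.85 (adjusted p = 0.0408). S100A9 was 36.1, 28.8 and 30.7 CPM in DMSO and 16.6, 17.8 and 18.5 CPM in PRL-295. Its call was kept only without CDDO-Me 1 or CDDO-Me 2 (0.0799 to 0.249 otherwise) and did not pass with the correction (-0.73, adjusted p = 0.227). The list's median there was 0.01, beside -0.01.

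Among 13122 other genes averaging 1 CPM or more, those with the pattern most like IL1A over the 9 libraries were CFAP36 (Pearson r = 0.992 of log2 CPM) and the pseudogene NPM1P27 (r = 0.978). The pattern most like IL1B was that of FAH (r = 0.985) and CHCHD3 (r = 0.984). CHCHD3 averaged 116, 104 and 128 CPM in DMSO, CDDO-Me and PRL-295, a far narrower range than IL1B. These values are descriptions over libraries that also share GC trends.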

How the data were processed

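Counts of reads per gene and FPKM were used as deposited by the authors. Per the labels' protocols, paired-end reads were aligned with STAR 2.5 and counted with HTSeq 0.6.1, and per the submitters' processing notes the build was hg38. The annotation release and the strand setting are not given in the sources used here. The deposited FPKM equalled count per kilobase of gene length and 1e6 counted reads in 100% of values within 0.1%. Group means of FPKM were not used. Counts were tested with the edgeR 4.0.16 quasi-likelihood test (R 4.3.3) in a single fit of all 9 libraries, with filterByExpr, TMM scaling and Benjamini-Hochberg adjustment over 16239 genes, threshold 0.05. Standard errors and 95% intervals come from that fit. The pipeline was tested on simulated counts with known changes. Those counts held no GC trend, so that test does not cover the trends of these libraries. The correction regressed each library's log ratio on GC content (longest transcript, GENCODE release 29) and length with splines of 4 degrees of freedom. That regression held no term for treatment. Alternatives were DESeq2 1.42.0, RLE scaling, other filters, fits of 6 libraries, a replicate block, the correction, and leaving out each library. All members were named. From each list the 4 largest called changes, or the most abundant gene where none was called, were named, and the 2 most similar genes per member past the F test. All list symbols matched, GSDME under its older symbol DFNA5. Members and lists were chosen with earlier results of these data known.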

Additional observations from a re-analysis of the deposited data

How the results depend on the processing

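For CDDO-Me against DMSO, the 1 called member became 3 with DESeq2 or no filter, and 2 with RLE scaling, a minimum of 1 CPM, a fit of 6 libraries, the GC and length correction, or that correction with a replicate block. Leaving out a library gave 0 to 3. All called genes numbered 1497, and 2616 with DESeq2, 2509 with no filter, 864 with the replicate block, 981 with the correction (620 higher and 361 lower, against 755 and 742 without it), 812 with correction and block, and 400 to 2803 without 1 library. For PRL-295 against DMSO, 0 called members became 2 with DESeq2, no filter, 6 libraries or the correction, 1 with correction and block, and 0 to 2 without 1 library. All called genes numbered 111, and 603, 825 and 650 with DESeq2, no filter and 6 libraries, 60 with the block, 167 with the correction, and 33 to 589 without 1 library. Between the compounds the 1 called member became 3 with DESeq2 or no filter. All called genes numbered 258, and 1054, 1250 and 45 with DESeq2, no filter and 6 libraries, 156 with the block, and 60 to 285 without 1 library. With the correction 147 were higher and 201 lower, against 147 and 111. Alone, the block moved these counts but changed no call of a member. Among the list genes it ended the CDDO-Me calls of NLRP1 (adjusted p = 0.0566), TAB2 (0.0918), GSDMD (0.0723), PTGS2 (0.0614) and CXCL1 (0.0589). It also ended the PRL-295 call of S100A9 (0.106), and kept the CDDO-Me calls of MAP3K7 (0.0404), CASP4 (0.0184), CAPN1 (0.0498) and LCN2 (0.0108). With 6 libraries the CDDO-Me calls of TAB2 (0.061), PTGS2 (0.0769) and CXCL1 (0.0753) ended. Added to the correction, the block ended the call of IL18 for PRL-295 (adjusted p = 0.065, against 0.0336). The labels do not say whether equal numbers in the titles pair the libraries. Deviations of same-numbered libraries correlated from -0.218 to 0.107, and not every library correlated best with its own number. With 3 libraries a group and GC trends that differ between libraries, these correlations cannot decide whether a pairing exists.

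Of 457 member values under alternatives 380 kept their direction and side of the threshold, 1 lost its call, 29 gained one and 47 turned sign. None of those that turned was called in the fit reported. With the correction, alone and with the block, IL18 (-0.28 and -0.29), IL1R2 (0.09 and 0.09) and CASP1 (-0.15 and -0.18) turned for CDDO-Me. The list genes SIGIRR, CAPN1, IL18BP and IRAK1, given here and below, are not members and not part of the 457 values. SIGIRR (0.16 and 0.16) and CAPN1 (0.02 and 0.02) turned for PRL-295, as did IL18BP with the correction alone (0.00). Between the compounds IL1R2 (-0.19 and -0.20) and IRAK1 (-0.06 and -0.04) turned. IL1R1, at 0.00 with CDDO-Me, was 0.01 with no filter and 0.04 with the block. With PRL-295 it was 0.01 with no filter, with 6 libraries and with correction and block, and 0.13 with the block. Between the compounds it was 0.00 with no filter or a minimum of 1 CPM, 0.09 with the block and 0.16 with correction and block. The cause was not tested. Leaving out 1 library, the values that turned in some fit ranged for CDDO-Me from -0.14 to 0.23 (IL18), -0.39 to 0.44 (IL1R1), -0.19 to 0.12 (IL1R2) and -0.07 to 0.26 (CASP1). For PRL-295 they ranged from -0.15 to 0.06 (IL1RN), -0.38 to 0.44 (IL1R1), -0.10 to 0.11 (IL1R2), -0.32 to 0.05 (IL1RAP), -0.25 to 0.17 (CASP1) and -0.21 to 0.00 (IL18BP). Between the compounds they ranged from -0.27 to 0.39 (IL1R1), -0.15 to 0.16 (IL1R2), -0.37 to 0.05 (IL36G), -0.32 to 0.08 (CASP1) and -0.06 to 0.25 (IRAK1). IL1R1 had 18 to 64 counts a library, and IL33 was under 3 counts in all.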
